A study of Mus musculus with 16 samples.

Results

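Sense intronic genes are non-coding gene models that lie inside an intron of another gene, on the strand from which that gene is transcribed. They were taken from the deposited gene annotation as all genes whose biotype field read sense_intronic, and each was paired with the protein-coding gene whose span holds it on the same strand, called its host. The annotation held 239 such genes, with 251 transcripts, among 50578 gene models in all, of which 46078 came from Ensembl sources. A host was found for 227 of them, in 179 distinct coding genes, while 12 had none.

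The study compared macrophages given lipopolysaccharide (LPS), which Gram-negative bacteria carry on their surface, with unstimulated macrophages in 16 libraries. The cells were mouse bone-marrow-derived macrophages, grown for 7 days with the growth factor M-CSF at 50 ng per ml. RNA-seq covered 3 LPS and 3 untreated samples of WT C57BL/6 cells, and ribosome profiling 2 LPS and 2 untreated samples of the same genotype and strain. The titles of the ribosome profiling samples, LPS and untreated alike, carry the label CHX, so untreated there means without LPS. RiboTag libraries came from cells of genotype LysM-Cre x RiboTag, in which Cre made by myeloid cells switches on a tagged ribosomal protein, and covered 2 samples after 6 h of LPS, 2 after 24 h and 2 untreated. The LPS time of the RNA-seq and ribosome profiling samples is not given per sample. Library values were not used here. The results therefore describe where these genes lie and not their expression, translation or response to LPS, and read depth is unknown.

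Introns are removed from the primary transcript and mostly degraded, but some hold genes of their own. The best known residents are snoRNA and microRNA genes, whose small RNAs are cut from the host's intron, and longer non-coding RNAs can also arise there from a start site of their own. A sense intronic model therefore occupies bases that the host's unspliced RNA also contains. An unspliced read over a model with 1 exon cannot be told apart, by position or strand, from a read of the host's pre-mRNA, whereas a read across the model's own splice junction can.

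Small RNA genes within the members show the kind of sequence that such a model can carry. Among the 239 members, 5 shared exon bases with a small RNA gene on the same strand (2.09%, Wilson 95% interval 0.897 to 4.80%), and 2 of these small RNA genes were microRNAs. Gm28119, on chr9:41581908-41582283 (mm10, plus strand), had 2 exons and 298 spliced bases, and held all 77 bases of Mir125b-1. It lay in the non-coding processed transcript gene 2610203C20Rik and not in a coding gene. Gm29008, on chr6:124717647-124717944 (minus strand), had 1 exon of 298 bases and covered 31 of the 72 bases of Mir141, a microRNA of the miR-200 family of epithelial cells. It lay in the antisense gene Gm15884, and the nearest coding gene on its strand, at 2763 bases, was Ptpn6, which encodes the phosphatase SHP-1 of blood cells. The sequences are from RefSeq (build GRCm38.p6), with the seed, bases 2 to 8 by which a microRNA pairs with its targets, in capitals for the mature forms. In the Mir141 hairpin the capitals mark the 31 bases that lie inside Gm29008.
mmu-miR-125b-5p: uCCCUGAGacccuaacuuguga
mmu-miR-125b-1-3p: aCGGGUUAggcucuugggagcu
mmu-miR-141-3p: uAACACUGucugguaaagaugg
Mir141 hairpin: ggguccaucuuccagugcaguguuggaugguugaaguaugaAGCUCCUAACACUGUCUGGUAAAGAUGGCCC
All 22 bases of miR-141-3p fell inside Gm29008 and none of the 22 bases of miR-141-5p did, so the start of this model lay inside the hairpin. No seed was shared among the 3 mature forms shown.

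The other 3 overlaps were with snoRNA genes, which guide chemical modification of other RNAs. Gm12238, in intron 1 of the stress granule gene G3bp1, was the shortest member at 124 bases, and every one of its bases lay within the 140-base snoRNA gene Gm22884. The RefSeq gene table also listed Gm12238 as a snoRNA. Gm28967 had all 281 of its bases within Scarna10, a 325-base gene for a Cajal body RNA, in intron 4 of the condensin gene Ncapd2. Gm29170, by contrast, was a model of 3666 bases in intron 1 of the deubiquitinase gene Uchl5, of which the whole 135-base snoRNA gene Gm25663 made up 3.68%. Counting only small RNA genes that lay entirely inside a member's exons left 2, Mir125b-1 and Gm25663.

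The members fell into single-exon and spliced models in almost equal number, and these differed in length. Single-exon models numbered 120 of 239 (50.2%, 95% interval 43.9 to 56.5%), 94 had 2 exons and 25 had 3 or more. The single-exon models had a median length of 2091.5 bases (quartiles 1224.75 and 2859.5) and ranged from 124 to 6071 bases. The spliced models had a median spliced length of 659 bases (quartiles 456.5 and 957, n = 119), and their longest own intron had a median of 1030 bases. As classes to set beside them, the 801 TEC genes in coding introns on the same strand, which are models still awaiting experimental evidence, had a median of 2227 bases, and the 332 snoRNA genes there had 128 bases. Over all members the median was 1072 bases, against 1042 bases (n = 3413) for all lincRNA genes of the annotation, which lie between genes. Over the members outside chromosomes 1, 3 and 5 the median was 677 bases, and the lincRNA genes were not restricted in that way. A single exon was listed for 6.21% of the lincRNA genes. It was also listed for 800 of the 801 TEC genes and all 332 snoRNA genes in coding introns. Intervals and quartiles describe counts and spread among gene models, which are not replicates of one another, and no test was made between classes.

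**Figure D1:**
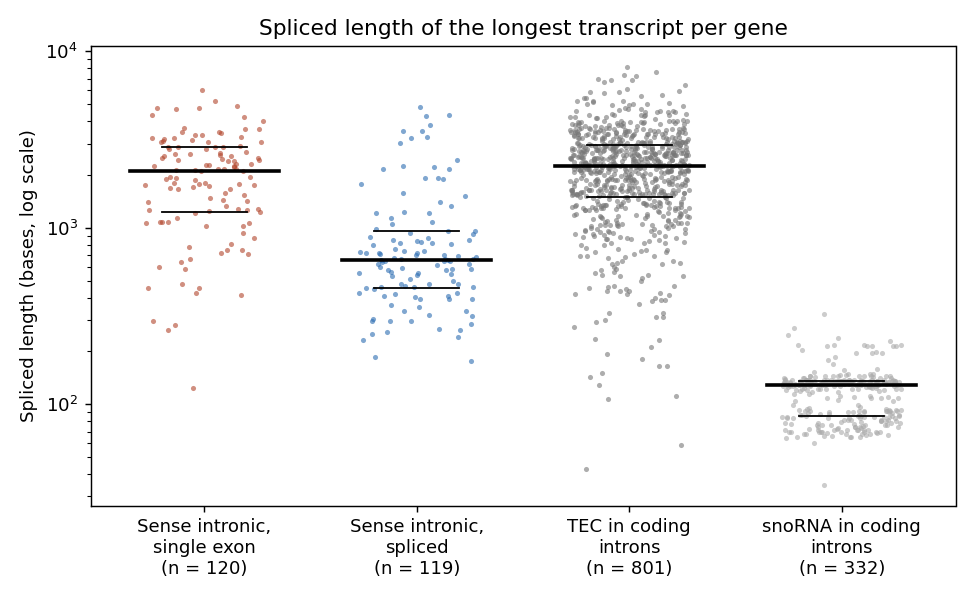
Spliced length in bases (log scale) of the longest transcript of each gene. Points are genes, thick lines medians and thin lines quartiles, for single-exon and spliced sense intronic genes and for TEC and snoRNA genes inside coding introns on the same strand. Single-exon members sit at the level of the TEC genes (medians 2091.5 and 2227 bases), spliced members lower at 659 bases, and snoRNA genes at 128 bases.

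The longest member was RP23-357D17.4, a single exon of 6071 bases in intron 11 of Lrig2, a leucine-rich repeat membrane protein gene. It was followed by RP23-356K2.6 in Man1a2 with 5214 bases, RP23-298M23.7 in Tdrkh with 4886, Cep112os2 in Cep112 with 4813 and RP23-407F12.1 in Cdk14 with 4759. Of these 5 only Cep112os2 was spliced. Its symbol denotes the opposite strand, but the model lay on the plus strand with its host, and the current symbol in the gene name table is Cep112it, for intronic transcript. The most exons, 7, were found in Gm8978, followed by 5 in C87198 and 4 in each of 8 members. Spliced members could extend over a long stretch of the host: Gm15338 had 552 spliced bases but spanned 103553 bases inside the only intron, of 412932 bases, in the selected transcript of Hs3st4, a heparan sulfate sulfotransferase gene.

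Most members had little transcript variety and uneven evidence. A single transcript was given for 228 of 239 (95.4%, 95% interval 91.9 to 97.4%), and RP24-182D2.1, with 3, had the most. Ensembl's transcript support level, in which 1 is the best and 5 the weakest, was 1 for 26 of the 119 spliced members, 2 for 16, 3 for 36 and 5 for 39, and was not given for 2. It was listed as not applicable for 114 of the 120 single-exon members and was missing for the other 6. No member had a coding sequence of an added (RefSeq or unknown source) model over its exons, which allows a share of up to 1.58% as the upper bound of a 95% interval.

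The intronic position follows from the biotype and serves here only as a check of the label. Of the 227 members with a host, 219 (96.5%, 95% interval 93.2 to 98.2%) lay in a gap between the merged exons of all coding transcripts of the host, and 225 (99.1%) lay in such a gap when non-coding host transcripts, which reach further, were included. Measured against 1 transcript per host, the coding transcript with the longest coding sequence, 203 (89.4%) lay in a single intron, 22 lay outside that transcript's ends, 1 touched an exon and 1 host had no coding transcript. Gm28748 was the member that touched an exon, since its span ran across an exon of Tmem135, without sharing an exon base. Only Gm28967 shared exon bases with a host transcript, 235 bases with non-coding transcripts of Ncapd2. The values for introns that follow rest on the 203 members placed in 1 intron.

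These members lay in long introns. The holding intron had a median of 31212 bases (quartiles 9342 and 90883), and the 178 distinct introns that held members had a median of 28530.5 bases, against 2349 bases (quartiles 967 and 7069.5) for all 2167 introns of the same hosts. The introns around TEC genes had a median of 38526 bases and those around snoRNA genes 1641 bases. Introns around spliced members were longer, with a median of 46128 bases (n = 97), than those around single-exon members, with 18608 bases (n = 106), although the spliced models themselves were shorter. A member's span covered a median of 7.88% of its intron. The fullest was the one around RP23-356K2.6, whose single exon of 5214 bases left 190 bases before it and 156 after it in a Man1a2 intron of 5560 bases, so that 93.8% of that intron belonged to the member.

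**Figure D2:**
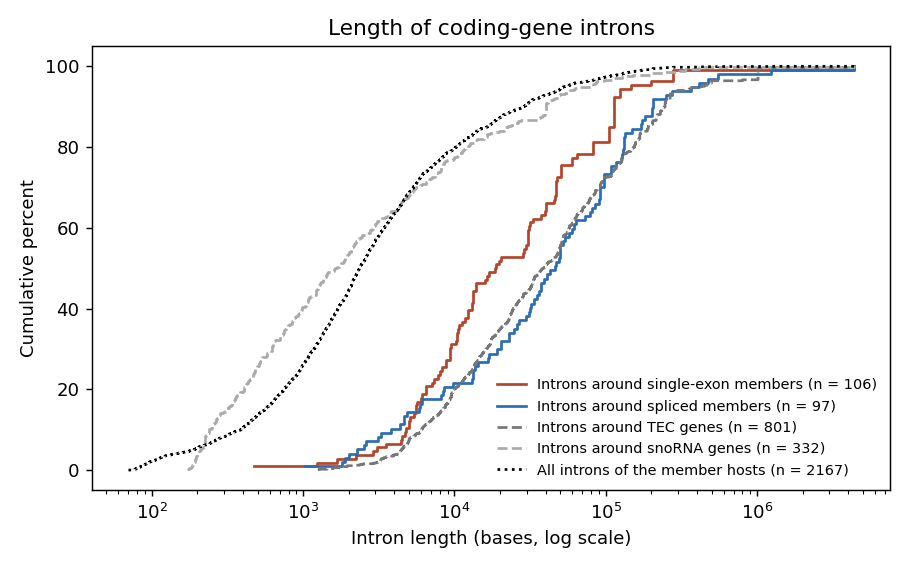
Cumulative percent of introns by length in bases (log scale) for introns around single-exon members, spliced members, TEC genes and snoRNA genes, and for all introns of the member hosts. The curves of both member types lie far to the right of all introns of their hosts (median 2349 bases), near the TEC curve, while the snoRNA curve lies near that of all introns.

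The first intron held more members than any other. It held 92 of 203 (45.3%, 95% interval 38.6 to 52.2%), while first introns made up on average 11.98% of the introns of those members' hosts and 34.0% of their intron bases. The share was 33.8% for TEC genes, whose hosts had 29.6% of intron bases in the first intron, and 16.0% for snoRNA genes, whose hosts had 23.4%. The longest intron of the host held 116 members (57.1%), where it made up 45.9% of intron bases on average, and the last intron held 12. By the reading frame of the host, 171 members lay between coding exons, 28 in introns of the 5′ untranslated region and 4 in introns of the 3′ untranslated region. Of these 4, 3 were in intron 14 of Cdk14 and 1, Gm29101, in Twist2, a basic helix-loop-helix factor gene of mesenchyme.

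Within the intron, members were found in similar numbers towards either end. By the share of the intron's remaining bases that lay before the member, 68 fell in the first of 3 equal parts, 75 in the middle part and 60 in the last. The nearest exon of the host lay a median of 5399 bases away. It lay within 1000 bases for 46 members (22.7%), against 16.4% of TEC genes and 66.0% of snoRNA genes, and within 100 bases for 7 (3.45%), against 2.62% and 32.2%. The nearest of all was WI1-2080J1.2, a 408-base spliced model that ended 3 bases before the downstream exon of Drc1, a gene of the dynein regulatory complex of cilia. Gm15869 began 8 bases after an exon of Fopnl, RP23-298M23.7 began 38 bases after one of Tdrkh, RP23-7M16.3 began 77 bases after one of Fam175a, and Gm28967 ended 79 bases before one of Ncapd2.

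**Figure D3:**
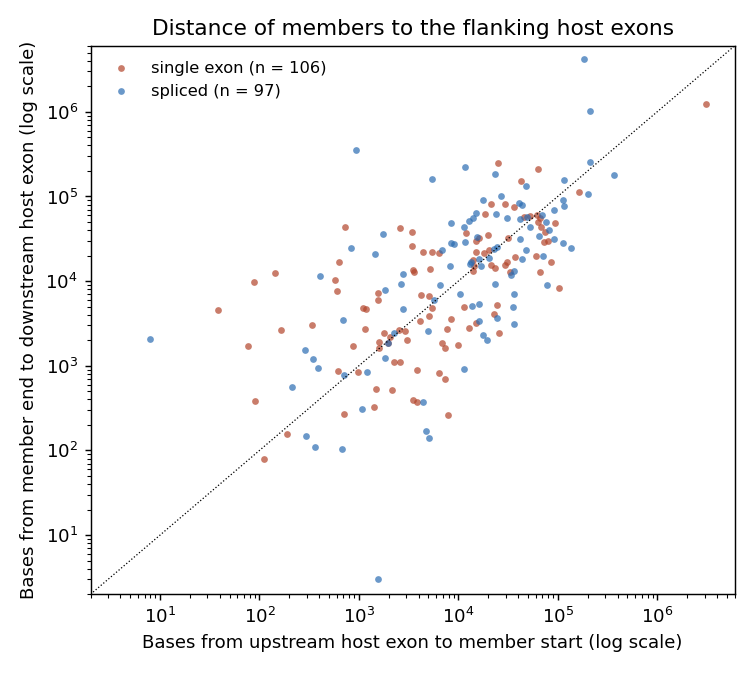
Bases from the upstream host exon to the member's start (horizontal, log scale) and from the member's end to the downstream host exon (vertical, log scale) for the 203 members in 1 intron, with single-exon and spliced members in different colours. Points lie on both sides of the line of equal distance, and few lie within 100 bases of an exon.

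The hosts were long genes. The median host span was 111968 bases over 179 hosts (quartiles 50432.5 and 280446), against 16345 bases over all 22159 protein-coding genes, and 175 of the hosts were above that median. When coding genes were split by span into 4 groups of about equal size, 0, 4, 31 and 144 genes of the shortest to the longest group held a member. Hosts had a median of 6 transcripts, against 2 for all coding genes, and a longest intron of 41781 bases, against 6432. In the longest introns the host was itself a model with a provisional name. Gm15898 and 2810013P06Rik were held only by Gm20388, in an intron of 4384418 bases that itself contained 36 coding genes on the same strand, and Gm15535 was held by Gm37240 in an intron of 1244595 bases.

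Members were spread thinly over most hosts and densely over a few. A single member lay in 155 hosts, and 24 hosts held 72 members between them. Magi3, a scaffold protein of cell junctions on chromosome 3, held 11, all with a single exon. Of these, 8 shared its first intron of 113797 bases and covered 18995 bases, or 16.7% of it, with gaps of 3827 to 20089 bases between neighbours. Their lengths ranged from 716 bases for RP23-333I5.4 to 4217 bases for RP23-333I5.7. The other 3 lay in introns 2, 6 and 7, where RP23-314M6.1 ended 259 bases before the next exon and RP24-535M14.2 ended 392 bases before it.

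Cdk14, a cyclin-dependent kinase gene on chromosome 5 linked to Wnt signalling, held 7 single-exon members in 3 of its 14 introns, with 2 in intron 2 of 124229 bases, 2 in intron 5 of 59864 bases and 3 in intron 14 of 82105 bases. Frmd4a, a scaffold of epithelial polarity on chromosome 2, held 6, of which 3 lay in its first intron of 278088 bases and 3 lay upstream of the selected transcript. In the small GTPase gene Rap1a, 3 of 4 members lay in the first intron of 50910 bases, within the 5′ untranslated region. The mannosidase gene Man1a2 also held 4, and Lrig2 and the sorting nexin gene Snx27 held 3 each. All members of these 7 hosts had a single exon. Neighbours could lie close together, as with RP23-267O21.4 and RP23-267O21.3 in intron 6 of Man1a2, which were 274 bases apart. No member overlapped another.

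**Figure D4:**
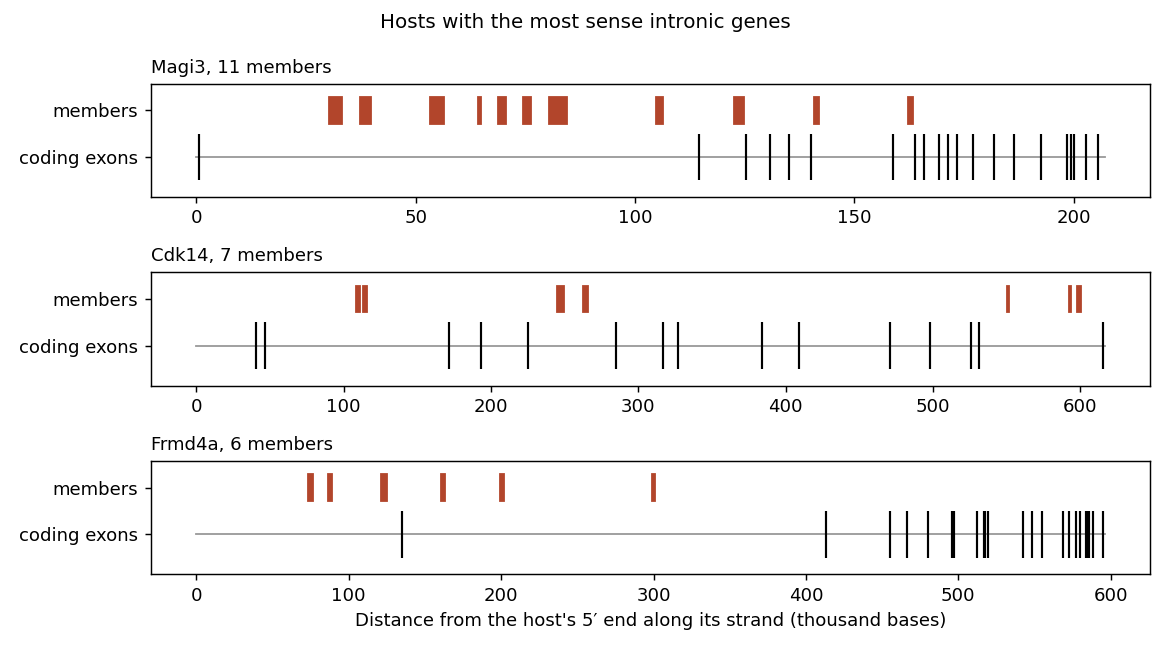
Members (boxes) and exons of the coding transcript with the longest coding sequence (bars) along the 3 hosts with the most members, in units of 1000 bases from the host's 5′ end. In Magi3, 8 of 11 members lie between the first exons, in Cdk14 the 7 members lie in 3 introns, and in Frmd4a 3 of 6 lie upstream of the first exon of that transcript.

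Chromosomes differed in how many members they carried, mainly through single-exon models. Chromosome 3 held 66 members, chromosome 5 held 39 and chromosome 1 held 31, together 136 of 239 (56.9%, 95% interval 50.6 to 63.0%), where 15.6% of protein-coding genes lie. Chromosomes X and Y held 0. Of the single-exon members 79.2% were on chromosomes 1, 3 and 5, of the spliced members 34.5%, and of all TEC genes 68.4%. The share of single-exon models was 69.9% among members on these chromosomes and 24.3% among members elsewhere.

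**Figure D5:**
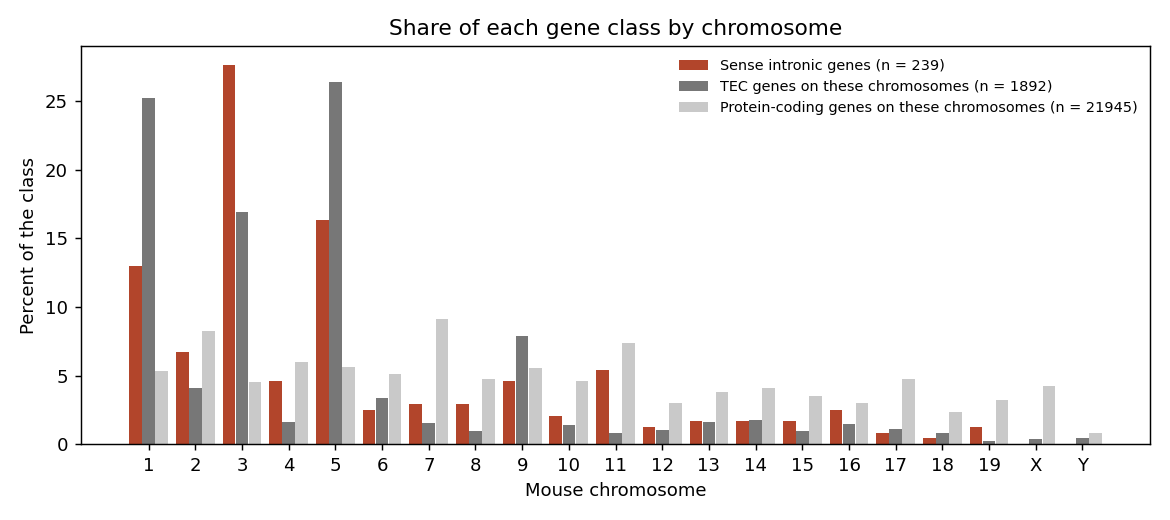
Percent of sense intronic genes, TEC genes and protein-coding genes on each mouse chromosome. Chromosomes 3, 5 and 1 stand out for the sense intronic genes (27.6%, 16.3% and 12.97%) and the TEC genes (16.9%, 26.4% and 25.2%), while coding genes have 4.54%, 5.65% and 5.36% there.

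On chromosome 3 the members were concentrated in 1 stretch. When members less than 1000000 bases apart were joined into runs, the largest reached from 100497429 to 106009387 and held 45 members, 18.8% of all. The stretch had 61 coding genes and 19 hosts, while its first member, RP23-356K2.5, had no coding host. All but 1 of the 45 had a single exon. Magi3, Man1a2, Rap1a and Lrig2 lie in this run, as does Ptpn22. No TEC gene held by a coding gene lay there, although chromosome 3 held 144 of them. Over the 3 runs with 5 or more members, 60 of 61 members had a single exon, and 1 of the 865 held TEC genes of the annotation fell within them. The other such runs were on chromosome 5 from 3544037 to 5311623, with 9 members, and on chromosome 2 from 3351134 to 4318886, with 7.

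No host was found in any of the 4 immune gene lists, while 18 hosts were found in 5 other lists of gene functions. None of the 47 LPS response, 44 LPS signalling, 35 interferon response and 33 macrophage identity genes with a coding model was a host, which gives 0 of 159 with an upper 95% limit of 2.36%. Over all coding genes 0.808% were hosts, so a list of this size would hold few at that share. These lists differed in gene length. In the longest of the 4 span groups were 4 of 47 LPS response genes (8.51%), 19 of 44 LPS signalling genes (43.2%), 6 of 35 interferon response genes (17.1%) and 11 of 33 macrophage identity genes (33.3%). Neither the 46 ion channel genes nor the 53 cytoskeleton and motor genes included a host, although their median spans were 401518 and 213262.5 bases. The shares for the lists describe these lists only, since hosts are few.

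Among 94 chromatin and transcription genes, 5 were hosts (5.32%). Over all coding genes the share was 0.808%, and over those in the longest span group it was 2.60% (144 of 5540). The median span of this list was 120715.5 bases, and those of the lists that follow ranged from 34099 to 856719 bases. Whether gene length accounts for the list shares was not tested. Tcf7l2, the main transcription factor of Wnt signalling, held Ppnr, a spliced model of 3525 bases with support level 1 in intron 4. Bach2, a repressor of lymphocyte differentiation, held Bach2it1, with 4 exons and 481 spliced bases in an intron of 78108 bases ahead of the coding sequence. Ikzf2, which encodes the lymphoid factor Helios, held the single-exon Gm29112 and Gm28112 in intron 3, 61664 bases apart. Nfib held Gm11267 and Sox5 held Sox5it, both with support level 1 and both outside the ends of the selected host transcript. The names Bach2it1 and Sox5it, in which "it" stands for intronic transcript, describe the same position.

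Among 73 RNA binding and splicing genes, 4 were hosts. Among them were Rbfox3, the neuronal splicing factor NeuN, with the 184-base Gm11749, Celf2 with Gm10855 and Gm10115, and Ptbp2, the neuronal polypyrimidine tract protein, with a single-exon member of 3239 bases. The ubiquitin ligase genes Rnf216, Fbxl17 and Trim33 were 3 hosts among 38, with RP23-393G8.5, 4930405O22Rik and RP23-70G12.3. Among 65 kinase and phosphatase genes Cdk14 and Erbb4, a neuregulin receptor, were hosts. Gm16076 in Erbb4 began 934 bases after the first exon of Erbb4, in an intron of 367141 bases. Among 56 neuronal adhesion and synapse genes, the hosts were Nlgn1 with Gm37573, Opcml with Gm15606, Ntm with Gm15521 and Pcdh15 with Gm15397, all 4 spliced members.

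Some hosts outside the lists have roles in immune cells, and they were picked out after the host names had been seen. Ptpn22, a phosphatase that restrains antigen receptor signalling, held 2 members in its first intron of 13154 bases, the spliced Gm15472 with 847 bases and the single-exon RP24-180F7.2 with 2092 bases, 282 bases apart. Cd38, an NAD-consuming surface enzyme of immune cells, held Gm16014 in its first intron of 31212 bases. Peg13, a known imprinted RNA, was a single exon of 4725 bases in intron 16 of Trappc9, 93232 bases after the upstream exon and 48241 bases before the downstream one.

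The 12 members without a coding host lay mostly in other non-coding genes. A non-coding Ensembl gene held 9 of them on the same strand. Besides Gm28119 and Gm29008, these were Gm26930 in Gm4258, C87198 in Gm26973, Gm29540 in A830009L08Rik, Gm26575 in Gm10125, Gm28492 in Gm13974, RP23-356K2.5 in Gm12474, and Gm28096 in Junos, the antisense gene of the transcription factor gene Jun. Of the 9, Gm26575 alone shared exon bases with its holder, 71 bases. The remaining 3, 1700129L04Rik, 1700123O21Rik and Gm14222, were held by no Ensembl gene on their strand. Their nearest coding genes on that strand were Nell2 at 57057 bases, Alg1 at 730673 bases and Top1 at 60697 bases, so the biotype does not describe their position in this annotation. Gm14222 did lie within the span of a coding gene on the opposite strand, Gm14221, without sharing exon bases.

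Few members shared bases with models on the opposite strand or with added models. Exon bases were shared with an opposite-strand gene by 9 members (3.77%), and in 3 of these the other gene was coding. All 3265 exon bases of Gm29358, a member with support level 1 in intron 3 of Pnkd, lay opposite exons of Tmbim1. Gm15708 and RP24-182D2.1, both in Bri3, lay opposite Baiap2l1 with 34 and 122 bases. Without counting by strand, which is not stated in the sources used here, reads from those bases cannot be assigned to either gene. An added model on the same strand shared exon bases with 6 members, including all 2858 bases of RP23-342N8.2 by Gm19409 and all 1217 bases of RP24-496C22.4 by Gm3364, so that the same bases stand under 2 gene names.

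Promoter windows were available in RefSeq (GRCm38.p6, 250 bases before to 50 after a start) for 16 members, as 17 windows, and for 130 of the 179 hosts, as 182 windows. The RefSeq start equalled the model's start for 8 of the 16 members and in 34 of the 182 host windows. It lay upstream of the host model in 19 host windows, over 1000 bases upstream in 2. The windows therefore describe RefSeq starts, many of which are not the starts of the models. CG dinucleotides, which are dense in the CpG island promoters of broadly active genes, numbered a median of 4 per window for members (quartiles 1 and 7), against 20 for hosts (quartiles 7 and 31) and 7 over all 32851 windows of the table. In 6 of 9 members whose host also had a window, the member had fewer than every window of its host. 4930405O22Rik, a spliced member of support level 1, had 2 CG dinucleotides, against 17 in the window of its host Fbxl17. Both windows are shown with each CG in capitals, at chr17:63312924-63313223 for the member and chr17:63500531-63500830 for Fbxl17, both on the minus strand. The Fbxl17 window starts from 63500580, upstream of the host model's start at 63500017.
4930405O22Rik: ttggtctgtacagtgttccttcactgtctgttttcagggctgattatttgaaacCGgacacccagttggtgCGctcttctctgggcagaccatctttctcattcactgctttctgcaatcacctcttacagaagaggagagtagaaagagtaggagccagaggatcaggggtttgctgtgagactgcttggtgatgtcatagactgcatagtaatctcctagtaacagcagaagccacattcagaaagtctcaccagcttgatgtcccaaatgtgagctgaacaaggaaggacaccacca
Fbxl17: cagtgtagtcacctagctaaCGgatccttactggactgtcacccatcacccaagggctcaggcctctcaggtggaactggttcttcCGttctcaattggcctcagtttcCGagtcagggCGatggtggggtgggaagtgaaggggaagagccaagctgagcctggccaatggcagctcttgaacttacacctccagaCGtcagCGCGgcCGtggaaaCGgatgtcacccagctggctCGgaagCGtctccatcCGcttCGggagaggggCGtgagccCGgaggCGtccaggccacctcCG
RP24-182D2.1, listed in RefSeq as Dmrt1i, was one of the exceptions. Its window at chr5:144357673-144357972 (plus strand) held 31 CG dinucleotides and 70.3% G and C. The window lies within the coding gene Baiap2l1 on the other strand, close to that gene's start at 144358112. The CG count therefore cannot be assigned to the member apart from the start region of Baiap2l1.
RP24-182D2.1: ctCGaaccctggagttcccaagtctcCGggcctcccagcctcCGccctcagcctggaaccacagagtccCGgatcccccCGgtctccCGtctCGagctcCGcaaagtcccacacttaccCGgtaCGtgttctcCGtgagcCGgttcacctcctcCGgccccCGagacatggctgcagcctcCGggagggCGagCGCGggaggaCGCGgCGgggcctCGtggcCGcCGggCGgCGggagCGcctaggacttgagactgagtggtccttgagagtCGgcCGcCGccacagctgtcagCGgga
The letters TATAAA, searched on both strands, occurred in 3 of 17 member windows, 17 of 182 host windows (9.34%) and 13.6% of all windows.

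Gm8978 lay among the lipase genes of the Lipo family, and of the 4 Lipo promoter windows aligned with its own, the most alike lay outside its host model. It was the member with the most exons, with 2224 spliced bases and support level 5, and lay on chr19:33612707-33625252 (minus strand) in the first intron, of 173254 bases, of the coding model named Lipo1, which spans 33517740 to 33761951. It was 1 of 2 members that the RefSeq gene table listed as protein-coding. The other was the single-exon RP23-225M12.2 in Hs2st1. Of the other matched members 23 were listed there as lncRNA and 1 as snoRNA. Aligned over 293 bases, the RefSeq promoter windows of Gm8978 (chr19:33625200-33625499) and of the gene RefSeq lists as Lipo1 (chr19:33787403-33787702) were identical at 287 (97.95%) with no gap between the outer ends. Capitals mark bases with no identical partner.
Gm8978: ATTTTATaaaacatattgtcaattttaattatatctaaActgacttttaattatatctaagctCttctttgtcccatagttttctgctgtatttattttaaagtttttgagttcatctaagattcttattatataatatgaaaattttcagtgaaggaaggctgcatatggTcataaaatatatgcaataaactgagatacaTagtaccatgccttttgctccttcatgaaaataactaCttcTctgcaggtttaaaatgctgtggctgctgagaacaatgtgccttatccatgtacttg
Lipo1: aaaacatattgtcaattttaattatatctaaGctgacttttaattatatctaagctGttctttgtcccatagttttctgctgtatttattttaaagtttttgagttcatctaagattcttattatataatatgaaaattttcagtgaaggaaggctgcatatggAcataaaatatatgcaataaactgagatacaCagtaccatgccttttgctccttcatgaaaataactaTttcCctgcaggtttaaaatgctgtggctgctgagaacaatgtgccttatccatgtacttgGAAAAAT
Aligned in the same way, the window of Lipo4 was identical to that of Gm8978 at 87.9% of 289 bases, that of Lipo3 at 55.1% of 276 and that of Lipo2 at 53.1% of 271. The host model began at 33761951, which is the RefSeq start of Lipo2, while the RefSeq start of Lipo1, at 33787452, lay outside the model and upstream of it. The near-identical window is thus not that of the host model as annotated, and at the model's own start the identity was the 53.1% of Lipo2. The transcribed bases beyond the first 50 were not compared, so how far reads of Gm8978 and of these genes can be told apart is unknown.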

How the data were processed

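RNA-seq, RiboTag and ribosome profiling libraries belong to the study, but the file used here is the gene annotation deposited by the authors, in GTF format with 1544831 lines and 0 columns of values per sample. The deposited values are start and end positions, counted from 1, in build mm10, which is listed together with TopHat2 2.1.1 per the submitters' processing notes. The assembly of the annotation is not described there. Library totals, and so depth and precision of any expression value, are unknown.

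Gene models were read with Python 3.11.15, pandas 2.3.3, numpy 2.4.6 and scipy 1.17.1, and figures drawn with matplotlib 3.10.9. A host was the smallest Ensembl protein-coding gene wholly holding the member on its strand. Intron rank and exon distances came from the host's coding transcript with the longest coding sequence. Spliced length was that of the longest transcript, and exon number that of the transcript with the most exons. Shares carry Wilson 95% intervals for counting error only. Since gene models do not replicate each other, no p-value is given. Positions in GRCm38.p6 were used only for RefSeq sequences. Host and intron assignment was checked on simulated models.

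The members and the lists of host genes were chosen with earlier results of these data known. By rule, members were named when their host was in a list or held 3 or more members, when they were among the extremes of length, exon and transcript number, intron length or exon distance, or when they had no coding host, held a small RNA gene or bore a name of their own. Others were named after their values were seen, and some named by the rule are not reported here. Of the 239 gene IDs, 234 were found in the symbol table, 87 of them with another symbol.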

Additional observations from a re-analysis of the deposited data

How the results depend on the processing

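Of 26 alternative values, 19 stayed within the 95% interval of the reported value, or within 1.5 times for a count, and 7 moved. The share of hosted members inside 1 intron, 96.5%, became 89.4% with the longest-CDS transcript only and 99.1% with every host transcript, since these rules use other exons. Members sharing exon bases with a host, 1, became 0 with coding transcripts only, and members with a small RNA gene, 5, became 2 when the whole small RNA had to lie inside. Without chromosomes 1, 3 and 5, which was chosen after seeing the data, the single-exon share of 50.2% became 24.3%, the median spliced length of 1072 bases became 677 and the median intron length of 31212 bases became 41113, while the first-intron share stayed at 46.7%. The cause was not tested. With 1 count per distinct intron, also added later, the first-intron share was 41.6%. No paired analysis was possible because the file holds gene positions and no library values. Depth sets no limit on counts of gene models.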
